A study of Mus musculus with 8 samples.

Results

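The mitochondrial chromosome of the mouse holds 37 genes whose symbols start with mt-, and all 37 were taken, out of 54749 genes in the GENCODE annotation of GRCm38 that matches the files. They are 13 mRNA genes, 2 rRNA genes and 22 tRNA genes. Their counts were compared between long-term hematopoietic stem cells (LT-HSCs) of 4 asrij floxed mice (homozygous, the controls; replicates 1, 3, 4 and 5) and 4 asrij KO mice (a whole-body knockout; replicates 2, 3, 4 and 5). Asrij is the mouse gene Ociad1, which codes for a protein found in mitochondria and endosomes. All mice carry an age label of 6 months, mice of both genders were used in the study, and each library came from 1 mouse. The methods give LSK CD150+ CD48+ bone marrow cells as the gate for these libraries. For RT-qPCR and ex vivo culture, the same methods give LSK CD150+ CD48- cells as LT-HSCs. The name LT-HSC is that of the study, and the difference between the printed gates is not explained there. Values are always given in the order of the replicate numbers.

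Each library held 23412829 to 44874882 gene counts, of which 221290 to 836572 lay on the mt- genes. Ociad1, the targeted gene, was lower in KO with no overlap between genotypes (log2 fold change -1.58, edgeR adjusted p = 0.0249). Its edgeR adjusted p rose to between 0.0759 and 0.0881 without floxed replicate 1 or without KO replicate 2, 4 or 5, and its log2 fold change was -1.29 without floxed replicate 3 (edgeR adjusted p = 0.00403), inside the threshold of 1.5 used here. All 10 LT-HSC markers looked at were found, and 9 had counts in every library, while Hoxb5 was at 0 in some. Their summed level was 96.4 to 138 CPM (counts relative to the scaled total of the library) in floxed and 102 to 117 CPM in KO. Erythroid markers summed to 27518 to 69329 CPM in floxed and 121367 to 294200 CPM in KO, above the LT-HSC markers in every library. The sum of megakaryocyte and platelet markers was also higher in every KO library (221 to 264 CPM against 66.5 to 132 CPM). That of T and NK cell markers was lower (51.3 to 56.4 CPM against 67.1 to 87.9 CPM). Such sums are set mainly by the most abundant genes, in the erythroid list the haemoglobin genes. By edgeR, 3 of 9 erythroid, 4 of 6 megakaryocyte and platelet and 0 of 7 T and NK cell markers had an adjusted p under 0.05 (2.97% of all genes tested). Of all single genes tested, 14.8% did not overlap between genotypes. Neutrophil and myeloid markers overlapped, at 18253 to 58603 CPM in floxed and 27696 to 33988 CPM in KO. B and plasma cell markers overlapped too, at 1082 to 1433 CPM in floxed and 1121 to 1308 CPM in KO. Both sums were above those of the LT-HSC markers in every library. The part of these cell types in the mitochondrial values was not tested. In bulk samples such as these, fewer cells of a type and less RNA per cell cannot be told apart.

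Mitochondrial DNA codes for subunits of the respiratory chain and the ATP synthase, and for the rRNAs and tRNAs that translate them inside the organelle. Both strands are transcribed as long precursors, and most mRNAs and rRNAs are set free by cutting out the tRNAs that lie between them. RNase P cuts the 5′ end of a tRNA and Elac2 the 3′ end, so the levels of RNAs from the same precursor depend on processing and decay as well as on transcription. Quiescent HSCs are known for low mitochondrial activity. In the annotation, 28 genes are read from the heavy strand (12 mRNA, 2 rRNA and 14 tRNA genes) and 9 from the light strand (mt-Nd6 and 8 tRNA genes). The genes run from base 1 to base 15422 of chromosome M with hardly any spacing. Of the 36 pairs of neighbours, 9 overlap, 12 touch, 14 are up to 5 bases apart and 1 pair, mt-Tn and mt-Tc, is 32 bases apart.

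The tRNAs are 59 to 75 bases long. The 4 heavy-strand tRNAs with the largest fitted increases are shown first, as DNA letters from the GENCODE transcripts (GRCm38), 5′ to 3′, with the anticodon in capitals. They are tRNA-Arg at chrM:9808-9875, tRNA-His at chrM:11546-11612, tRNA-Ser (AGY) at chrM:11613-11671 and tRNA-Leu (CUN) at chrM:11671-11741, all on the plus strand.
mt-Tr: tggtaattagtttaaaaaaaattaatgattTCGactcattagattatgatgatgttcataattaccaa
mt-Th: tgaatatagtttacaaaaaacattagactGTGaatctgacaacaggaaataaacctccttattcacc
mt-Ts2: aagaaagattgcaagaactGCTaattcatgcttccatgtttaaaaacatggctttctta
mt-Tl2: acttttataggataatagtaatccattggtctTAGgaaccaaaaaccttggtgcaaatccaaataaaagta

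mt-Th, mt-Ts2 and mt-Tl2 form 1 uninterrupted block between mt-Nd4 and mt-Nd5, and mt-Ts2 and mt-Tl2 share 1 base. mt-Tr lies between mt-Nd3 and mt-Nd4l. The 2 tRNAs with the most counts are on the minus strand, tRNA-Ser (UCN) at chrM:6870-6938, whose gene overlaps the end of mt-Co1 by 3 bases, and tRNA-Glu at chrM:14071-14139, between mt-Nd6 and mt-Cytb.
mt-Ts1: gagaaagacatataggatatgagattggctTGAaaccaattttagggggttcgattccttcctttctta
mt-Te: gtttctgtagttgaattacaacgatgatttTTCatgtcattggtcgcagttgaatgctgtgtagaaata

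Genes that overlap share the counts of their common bases. The longest such stretch is the 43 bases at chrM:7927-7969 that end mt-Atp8 and open mt-Atp6. It makes up 21.1% of mt-Atp8 and is shown because mt-Atp8 and mt-Atp6 are set side by side among the results, with the start codon of mt-Atp6 in capitals.
mt-Atp8 and mt-Atp6 overlap: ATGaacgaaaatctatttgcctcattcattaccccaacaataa

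The share of all gene counts that lay on the mitochondrial chromosome did not separate the genotypes. It was 1.23%, 1.86%, 1.16% and 0.852% in floxed and 1.44%, 1.69%, 0.924% and 1.03% in KO libraries, so the range of KO lay inside that of floxed. The mean was 1.27% ± 0.425 in floxed and 1.27% ± 0.357 in KO (SD, n = 4). Haemoglobin genes took 5.13% ± 1.97 of gene counts in floxed and 17.8% ± 5.65 in KO (SD, n = 4). With them left out of the total, the mitochondrial share was 1.35% in floxed and 1.53% in KO, a difference within 1 SD. Counting error is small here, with 95% Wilson intervals at most 0.00866 percentage points wide for this share and 0.219 points for the shares by class, and these intervals cover counting error only. They do not cover the split of reads with the nuclear copies described further on. Counts of these copies lie outside the share of all gene counts, and outside the shares by class unless stated.

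Within the mitochondrial counts, rRNA took a larger part in the KO means and mRNA a smaller one. The rRNA share was 8.83%, 7.51%, 8.17% and 7.50% in floxed and 12.7%, 11.6%, 10.2% and 8.71% in KO. Only KO replicate 5 fell inside the floxed range, and the means were 8.002% ± 0.639 and 10.8% ± 1.73 (SD, n = 4). With the counts of nuclear copies of the mRNA genes added to them, the means were 6.06% and 8.28%. The difference was 4.0 percentage points within replicates 1 to 3 and 1.63 within replicates 4 and 5, a grouping of numbers known from earlier work on these counts and not from the labels. The mRNA share was 90.3% ± 0.867 in floxed and 87.2% ± 2.05 in KO (SD, n = 4), with overlap. tRNA took 1.71% ± 0.389 and 1.95% ± 0.326 (SD, n = 4), and here the difference was 0.731 points within replicates 1 to 3 and -0.244 within 4 and 5. Genes annotated on the light strand held 4.45% ± 0.941 of the mitochondrial counts in floxed and 4.43% ± 0.375 in KO (SD, n = 4). The difference of -0.0226 points was 0.690 within replicates 1 to 3 and -0.735 within 4 and 5. The light-strand share therefore had no common direction. Strand was not used in the counting, as described below, so this share takes in reads of either strand at these genes.

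**Figure D1:**
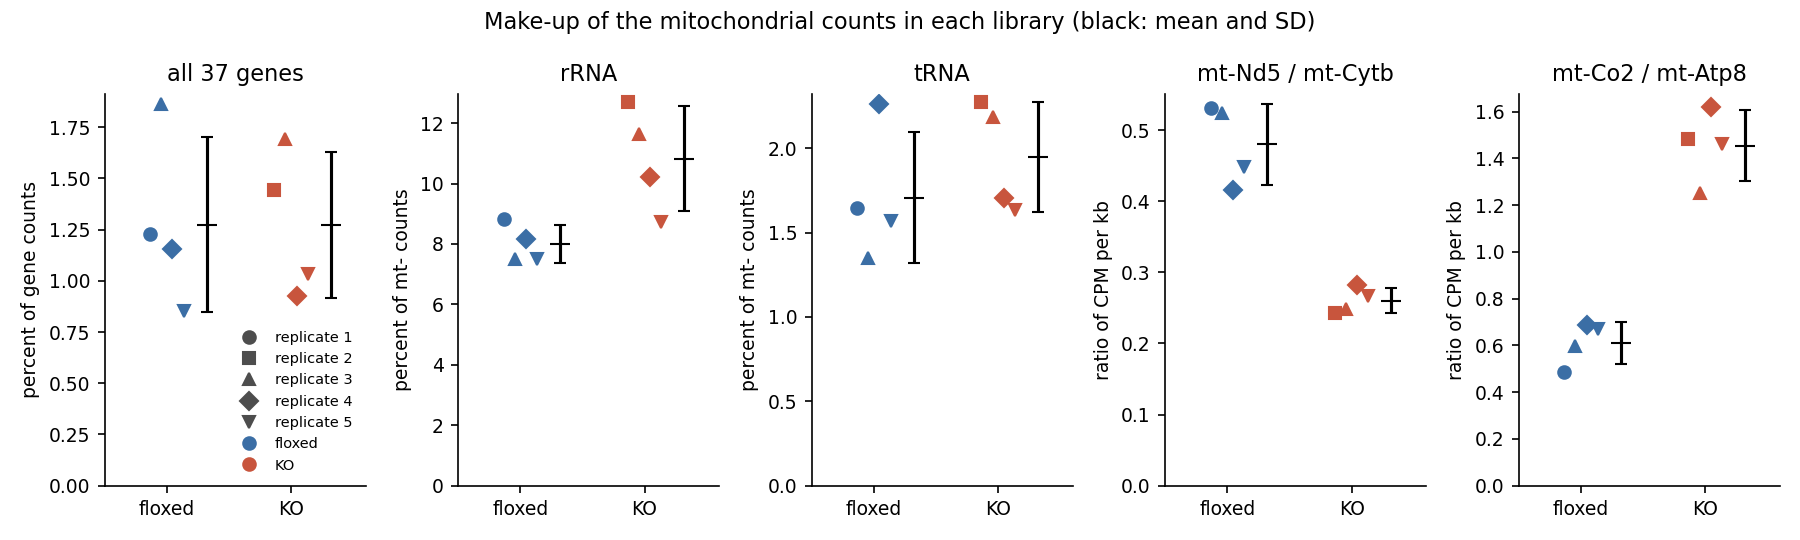
Share of all gene counts on the 37 mitochondrial genes, shares of rRNA and tRNA among the mitochondrial counts (percent), and the ratios of mt-Nd5 to mt-Cytb and of mt-Co2 to mt-Atp8 (CPM per kb of gene), for each library, with the mean and SD of 4 libraries in black. The total share overlapped between genotypes (0.852% to 1.86% in floxed), the rRNA share nearly separated them, and both ratios separated them, with mt-Nd5 per mt-Cytb at 0.416 to 0.531 in floxed and 0.243 to 0.282 in KO.

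Levels of single genes are compared per length, as CPM per kb. Reads of several mRNAs, such as mt-Atp6, mt-Co2 and mt-Co3, are split with nuclear copies of the same sequence, described further on, and the order of the mRNAs depends on whether the counts of the copies are added. Without them, among the mRNAs of floxed libraries, mt-Co1, the catalytic subunit of complex IV, was highest at 2149 ± 608 CPM per kb, and mt-Nd3, a small subunit of complex I, was lowest at 177 ± 58.9 (SD, n = 4). Between them, in falling order, came mt-Atp6, mt-Atp8, mt-Co3, mt-Co2, mt-Nd1, mt-Cytb, mt-Nd6, mt-Nd4, mt-Nd2, mt-Nd5 and mt-Nd4l. No gene in this order was apart from the next beyond the spread of the libraries. In each floxed library, however, mt-Co1 was above mt-Atp6, mt-Atp8 above mt-Co3, mt-Nd4 above mt-Nd2, mt-Nd5 above mt-Nd4l and mt-Nd4l above mt-Nd3. With the copies added, mt-Atp6 was highest at 3369 ± 555 CPM per kb and mt-Co1 next at 2507 ± 682 (SD, n = 4), and the order was reversed in all 4 floxed libraries for mt-Co1 and mt-Atp6, for mt-Atp8 and mt-Co3 and for mt-Nd5 and mt-Nd4l. For mt-Atp8, which lies between copied genes, the annotation holds no copy to add, so its place in this order may depend on the annotation. The floxed mean of mt-Nd3 was lowest with or without the copies, but with them mt-Nd3 was below mt-Nd5 in only 2 of the 4 floxed libraries. In both orders, subunits of complex IV and the ATP synthase stood at the top and those of complex I mostly at the bottom, with mt-Nd1 the highest of complex I at 957 ± 198 CPM per kb (SD, n = 4). mt-Nd6, the mRNA on the light strand, was at 704 ± 197 CPM per kb (SD, n = 4), in the middle of the order.

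The rRNAs were below many mRNAs, with mt-Rnr1 (12S) at 338 ± 82.1 and mt-Rnr2 (16S) at 389 ± 96.6 CPM per kb in floxed (SD, n = 4). The sources used here do not say whether rRNA was removed or polyadenylated RNA selected. The tRNAs covered the widest range. Fragment length was not taken into account, so levels per kb of genes of 59 to 75 bases may not be comparable with those of longer genes. mt-Ts1 at 1186 ± 254 and mt-Te at 656 ± 219 CPM per kb (floxed, SD, n = 4) were in the range of the mRNAs, and mt-Tl1 at 200.1 ± 23.8 followed. mt-Tf and mt-Tv, on either side of mt-Rnr1, were lowest at 2.51 ± 1.18 and 4.48 ± 2.64 CPM per kb (floxed, SD, n = 4), with 3 to 21 counts in a library. mt-Ts1 and mt-Te together held 64.5% ± 1.93 of tRNA counts in floxed and 68.8% ± 2.76 in KO (SD, n = 4), and the other 20 tRNA genes had 3 to 858 counts in a library. Strand was not used in the counting: for transcripts that lie inside the span of a gene on the other strand, the outer gene had at least as many counts in every library in 99.9% of 4789 pairs. Reads of mt-Ts1 and mt-Co1 at their common bases, and of mt-Nd6 and mt-Nd5 at theirs, therefore cannot be told apart, and neither can a mature tRNA and an uncut precursor. Reads from the other strand at a gene are counted for it as well. Values by strand thus go by the annotated gene, not by the strand of the RNA.

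**Figure D2:**
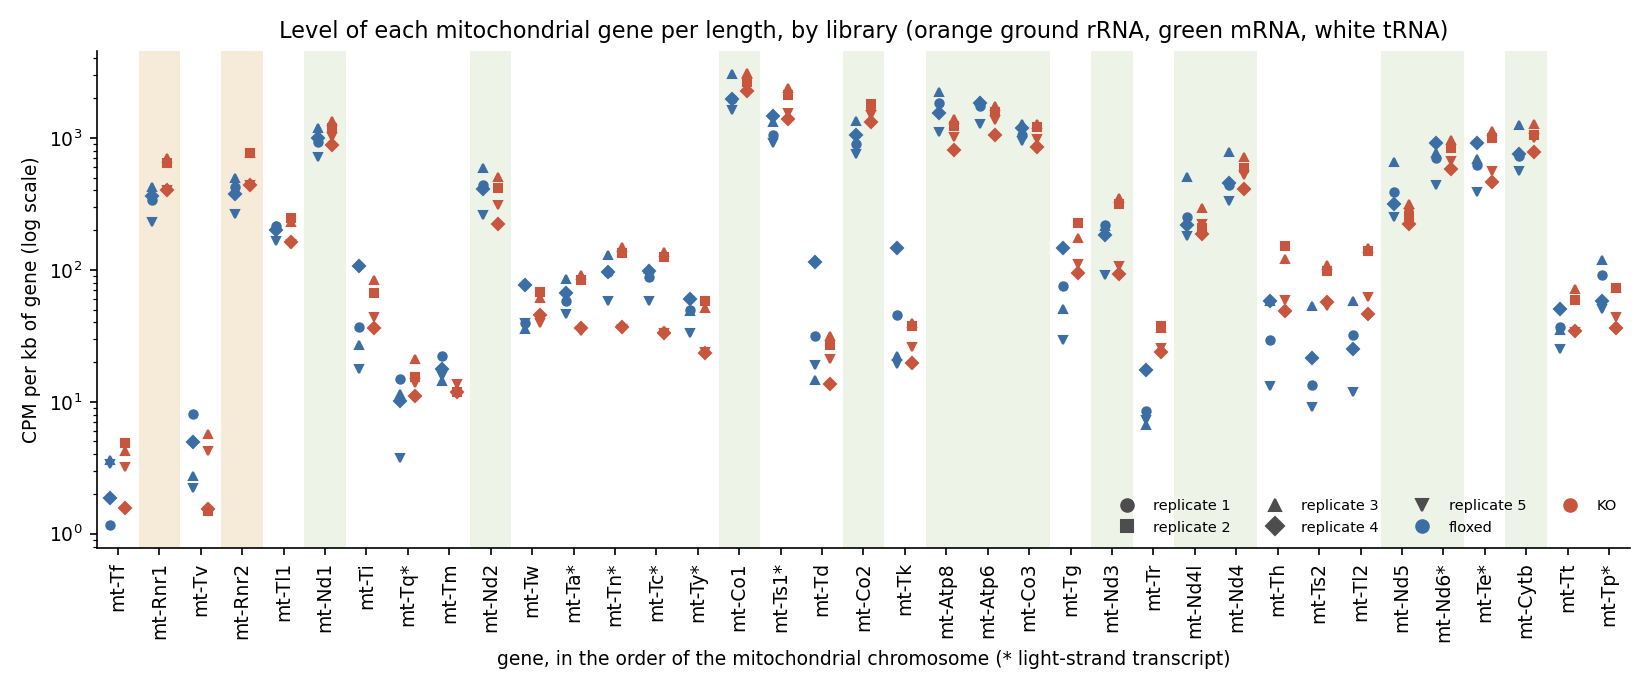
Level of each mitochondrial gene in each library, in CPM per kb of gene on a log axis, in the order of the chromosome, with floxed in blue and KO in red, a symbol for each replicate number, and an asterisk for light-strand genes. Without the counts of nuclear copies, mRNAs lie between about the level of mt-Nd3 (177 in floxed) and that of mt-Co1 (2149), while tRNAs reach from mt-Tf (2.51) to mt-Ts1 (1186).

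No mitochondrial gene passed the thresholds between KO and floxed (an adjusted p below 0.05, with a log2 fold change beyond 1.5 in either direction, in edgeR's fit over all genes). Of the 37 genes, 35 had enough counts to be tested, all but mt-Tf and mt-Tv, and 0 of these were called, where 1.19% of all 21902 genes tested were called. Nor was any adjusted p under 0.05 (2.97% of all genes tested). The smallest was 0.0534 for mt-Tr. At an unadjusted p under 0.05, edgeR gave 8 mitochondrial genes, 7 with a positive and 1 with a negative fold change, and 21.8% of all genes tested. The count of called mitochondrial genes depended on the fit. DESeq2 called mt-Tr, mt-Ts2 and mt-Tl2, with 2.3% of all genes called, and limma-voom called mt-Tr, with 0.849% of all. With a term for replicate numbers 4 and 5 against 1 to 3, edgeR called mt-Tr, mt-Ts2 and mt-Tl2, and 2.38% of all genes. Without floxed replicate 3, edgeR called mt-Ts2 and mt-Tl2 (3.88% of all genes), and without floxed replicate 4 it called mt-Tr (0.691%). All these calls were higher in KO. The median log2 fold change was 0.17 over the 35 genes and -0.01 over all genes tested. By class it was 0.11 for mRNA, 0.65 for rRNA and 0.21 for tRNA, and by strand 0.26 for heavy-strand and -0.07 for light-strand genes. The median standard error was 0.26 for mRNA genes and 0.42 for tRNA genes. The genotypes did not overlap for 3 of the 35 genes (8.57%), against 14.8% of all genes tested. KO was above floxed for 2, mt-Tr and mt-Ts2 (7.1% of all genes), and below for 1, mt-Tm (7.66% of all).

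**Figure D3:**
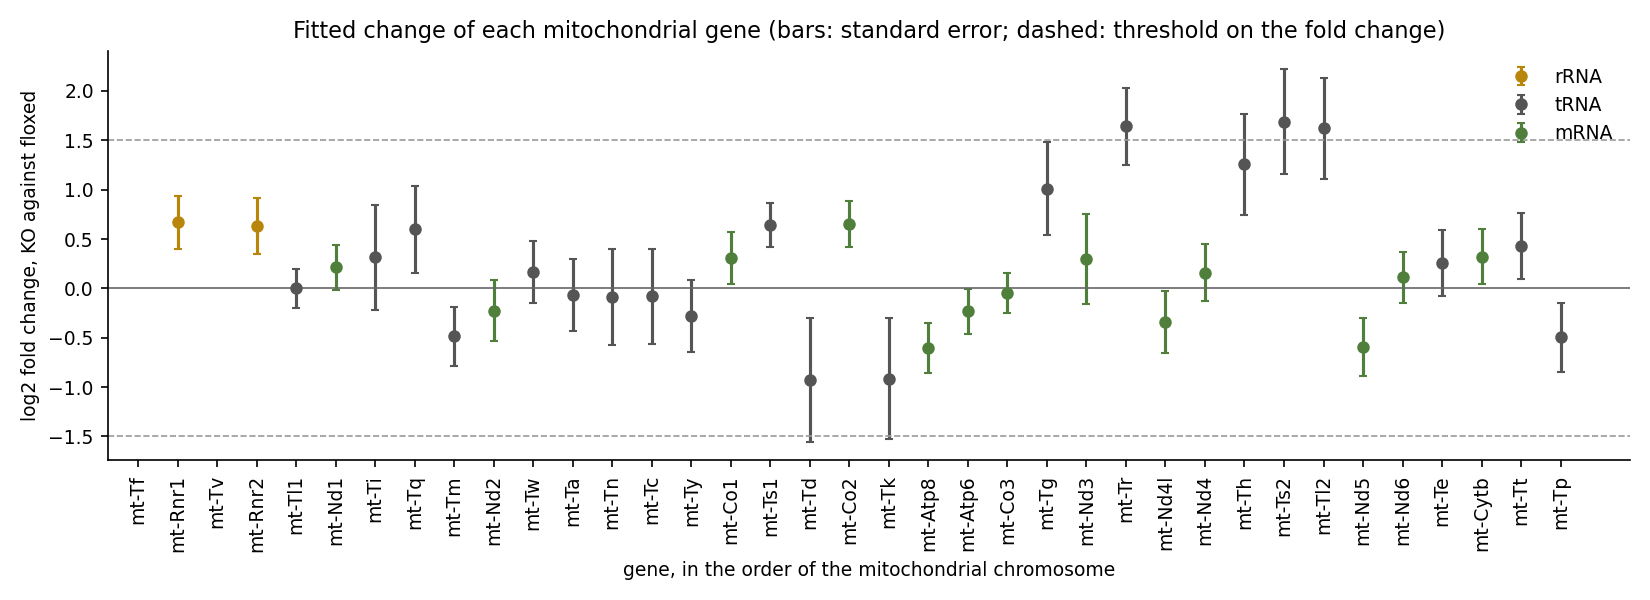
Fitted log2 fold change of each tested mitochondrial gene, KO against floxed, in the order of the chromosome, with bars for the standard error, dashed lines at the threshold on the fold change, and colours for the RNA class. mt-Tr, mt-Ts2 and mt-Tl2 lie above 1.5, with adjusted p-values of 0.0534, 0.104 and 0.108, and the mRNAs lie between -0.60 (mt-Atp8) and 0.65 (mt-Co2).

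Both rRNAs had positive fold changes. mt-Rnr1 was at 321, 407, 344 and 219 CPM in floxed and at 617, 669.7, 382 and 386 CPM in KO. KO replicates 2 and 3 were above all floxed libraries, while KO replicates 4 and 5 were within the floxed range. The log2 fold change was 0.67 (SE 0.27, edgeR adjusted p = 0.181). mt-Rnr2 gave 0.64 (SE 0.28, edgeR adjusted p = 0.231). With the term for numbers 4 and 5, the edgeR adjusted p was 0.0374 for mt-Rnr1 and 0.0326 for mt-Rnr2, the smallest of 20 alternatives, which reached 0.392 and 0.455. The ratio between the 2 rRNAs overlapped, at 1.15 ± 0.0894 mt-Rnr2 per mt-Rnr1 in floxed and 1.12 ± 0.0524 in KO (per length, SD, n = 4). Relative to mt-Nd1, the first mRNA gene downstream, mt-Rnr1 was at 0.363, 0.357, 0.364 and 0.320 per length in floxed and at 0.540, 0.526, 0.451 and 0.397 in KO. The genotypes did not overlap in this ratio, which was chosen after its values had been seen.

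Of the 13 mRNAs, mt-Co2 had the largest positive and mt-Atp8 the largest negative fold change. mt-Co2 codes for the subunit of complex IV that receives electrons from cytochrome c. It was at 616, 919, 719 and 513 CPM in floxed and at 1241, 1199, 901 and 1013 CPM in KO. All KO libraries but replicate 4 were above all floxed libraries, and the log2 fold change was 0.65 (SE 0.23, edgeR adjusted p = 0.141). DESeq2 gave it an adjusted p of 0.0276, edgeR with the term for numbers 4 and 5 gave 0.0351, and edgeR without floxed replicate 3 gave 0.0157, while the largest of 20 alternatives was 0.361. mt-Atp8, a small subunit of the ATP synthase, was at 378, 457, 313 and 228 CPM in floxed and at 249, 285, 166 and 207 CPM in KO. KO replicates 2 and 3 lay between floxed replicates 4 and 5, and the log2 fold change was -0.60 (SE 0.25, edgeR adjusted p = 0.205, or 0.0286 with the term for numbers 4 and 5 and up to 0.436 over 20 alternatives). mt-Nd5, the largest mitochondrial subunit of complex I, was at 709, 1188, 576 and 461 CPM in floxed and at 469, 579.96, 402 and 488 CPM in KO. The genotypes overlapped and the log2 fold change was -0.60 (SE 0.29, edgeR adjusted p = 0.272).

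The other mRNAs had log2 fold changes between -0.34 and 0.32 and edgeR adjusted p-values of 0.542 or more. Among complex I subunits they were 0.21 for mt-Nd1, -0.22 for mt-Nd2, 0.30 for mt-Nd3, -0.34 for mt-Nd4l, 0.16 for mt-Nd4 and 0.11 for mt-Nd6. They were 0.32 for mt-Cytb, the mitochondrial subunit of complex III, 0.31 for mt-Co1 and -0.04 for mt-Co3, subunits of complex IV, and -0.23 for mt-Atp6, the proton channel subunit of the ATP synthase. The signs for mt-Nd4 and mt-Nd6 turned when library totals were used without further scaling, and with the mitochondrial total as library size, and that for mt-Co3 turned when transcripts were summed.

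Ratios between mRNAs of the same library leave out how much mitochondrial RNA the library held, and these separated the genotypes more often than the levels did. All 78 pairs of the 13 mRNAs were looked at. In 33 pairs (42.3%) every KO library was on the same side of every floxed library, with the counts of nuclear copies added or not. Among all 3403 pairs of 83 nuclear genes of mitochondrial RNA metabolism, which have lower counts, the share was 9.52%. The share among pairs of other genes with counts like those of the mRNAs was not worked out. The 42.3% therefore cannot be read as a trait of the mitochondrial mRNAs. The pairs share genes and are not independent, and no test was made. mt-Co2 was relatively higher in KO in 10 of its 12 pairs and mt-Cytb in 6. mt-Atp8 was relatively lower in KO in 9 of its 12 pairs and mt-Nd5 in 6, and mt-Nd3 separated the genotypes in 0. The other 8 genes separated them in 2 to 6 pairs with mixed directions. With the mitochondrial total as library size, edgeR called 0 of the 35 genes.

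Neighbours on the chromosome differed in this way too. The ratio of mt-Co2 to mt-Atp8, which lie on either side of mt-Tk, was 0.486, 0.599, 0.686 and 0.672 per length in floxed and 1.48, 1.25, 1.62 and 1.46 in KO. The ratio of mt-Nd5 to mt-Nd4, on either side of the block of 3 tRNAs shown above, was 0.878, 0.834, 0.691 and 0.756 in floxed and 0.432, 0.442, 0.536 and 0.512 in KO. Neither ratio overlapped between genotypes. For mt-Atp8 and mt-Atp6, which share 43 bases, the ratio was 0.841 to 1.18 in floxed and 0.747 to 0.799 in KO. These ratios too were chosen after their values had been seen.

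Of the 20 tRNA genes tested, 11 had a fitted fold change above 0 and 9 below, and 5 had an unadjusted p under 0.05 (21.8% of all genes tested), all 5 with a positive fold change. A count of 5 in 20 is near that background. The largest changes, mt-Tr, mt-Ts2, mt-Tl2 and mt-Th, were in heavy-strand tRNAs of low counts. mt-Tr was at 0.580, 0.454, 1.19 and 0.498 CPM in floxed and at 2.54, 2.47, 1.63 and 1.74 CPM in KO, from 13 to 28 and from 46 to 99 counts. Every KO library was above every floxed library. The log2 fold change was 1.64 (SE 0.39, edgeR adjusted p = 0.0534), and the adjusted p was 0.0018 by DESeq2, 0.0405 by limma-voom and 0.0178 by edgeR with the term for numbers 4 and 5. Without floxed replicate 4, the highest floxed library, the log2 fold change was 2.04 (edgeR adjusted p = 0.0404), and without floxed replicate 3 it was 1.49 (edgeR adjusted p = 0.0344), just under the threshold on the fold change. Over 20 alternatives the adjusted p of mt-Tr ran from 0.0018 (DESeq2) to 0.198. The latter came from edgeR with a replicate block, fitted to replicates 3, 4 and 5 only.

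mt-Ts2, which lacks the D arm of other tRNAs, was at 0.791, 3.12, 1.28 and 0.537 CPM in floxed and at 5.79, 6.45, 3.37 and 3.15 CPM in KO. The genotypes did not overlap, although floxed replicate 3 was close to KO replicate 5. The log2 fold change was 1.69 (SE 0.53, edgeR adjusted p = 0.104), or 2.45 without floxed replicate 3 (edgeR adjusted p = 0.0056). mt-Tl2 was at 2.27, 4.10, 1.79 and 0.843 CPM in floxed and at 9.84, 10.4, 3.26 and 4.46 CPM in KO. KO replicate 4 was below floxed replicate 3, and the log2 fold change was 1.62 (SE 0.51, edgeR adjusted p = 0.108), or 2.10 without floxed replicate 3 (edgeR adjusted p = 0.0259). Over 20 alternatives the adjusted p ran from 0.0056 to 0.253 for mt-Ts2 and from 0.0070 to 0.246 for mt-Tl2. mt-Th, the first of the block, was at 1.98, 3.88, 3.91 and 0.881 CPM in floxed and at 10.2, 8.04, 3.26 and 3.95 CPM in KO. It overlapped, and the log2 fold change was 1.26 (SE 0.51, edgeR adjusted p = 0.189).

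Relative to the next mRNA gene downstream, these tRNAs did not overlap between genotypes. Per length, mt-Ts2 was at 3.45% to 8.12% of the level of mt-Nd5 in floxed and at 19.98% to 38.1% in KO. For mt-Tl2 it was 4.69% to 8.88% and 20.8% to 53.9%, and for mt-Th it was 5.20% to 18.5% and 22.04% to 59.3%. mt-Tr was at 1.32% to 8.04% of the level of mt-Nd4l in floxed and at 11.5% to 18.1% in KO. By this measure the tRNAs were below that mRNA in every library, with the limit for short genes given above. mt-Nd5 itself had a negative fold change, and these pairs were picked after their values had been seen.

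**Figure D4:**
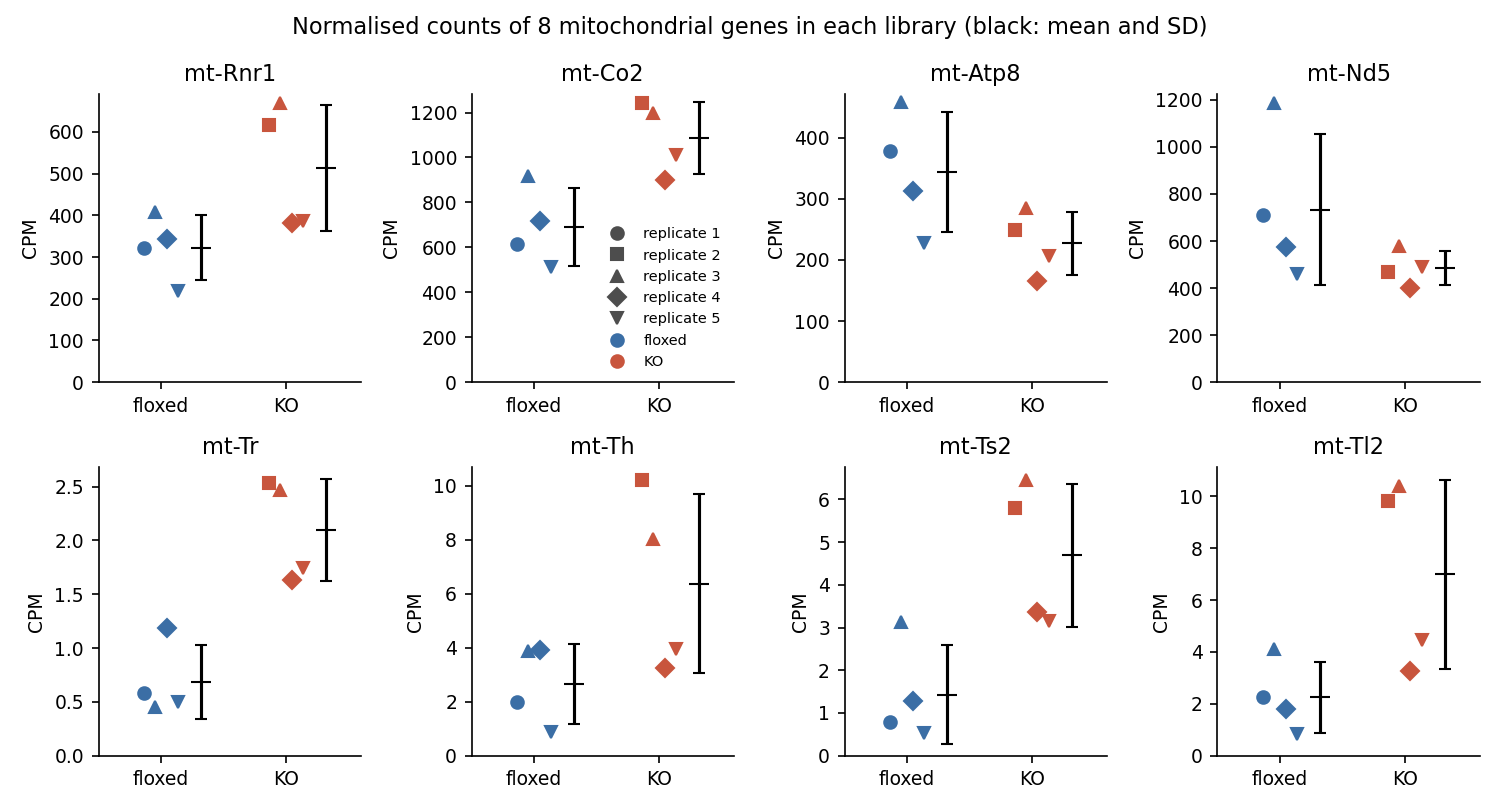
Normalised counts (CPM) of mt-Rnr1, mt-Co2, mt-Atp8, mt-Nd5, mt-Tr, mt-Th, mt-Ts2 and mt-Tl2 in each library, with the mean and SD of 4 libraries in black. mt-Tr and mt-Ts2 are higher in every KO library than in any floxed library, while the other 6 genes overlap.

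The remaining tRNAs are given by the position of their genes. Among the 13 that lie beside an mRNA gene, mt-Tr had the largest positive fold change and mt-Td the largest negative one. mt-Td was at 2.21, 1.02, 8.04 and 1.34 CPM in floxed and at 1.90, 2.21, 0.958 and 1.49 CPM in KO. Floxed replicate 4 set it apart, with a log2 fold change of -0.93 (SE 0.63, edgeR adjusted p = 0.430) with that library and 0.11 without. mt-Tk, the next tRNA along the chromosome, was at 9.48 CPM in floxed replicate 4, at 1.26 to 2.98 CPM in the other floxed libraries and at 1.28 to 2.55 CPM in KO. Floxed replicate 4 was the highest floxed library for 11 of the 20 tested tRNA genes, and each of the 11 lies beside an mRNA gene, as do 13 of the 20. This count was singled out after the values had been seen. The share of all genes that were highest in this library was not worked out. mt-Tg had a log2 fold change of 1.01 (edgeR adjusted p = 0.250) and mt-Ts1 one of 0.64 (SE 0.23, edgeR adjusted p = 0.141), at 72.7, 90.5, 102 and 62.6 CPM in floxed and 146, 164, 95.2 and 106 CPM in KO. mt-Tm, which reads the start codon, was below the floxed range in every KO library, at 0.816 to 0.942 CPM against 0.983 to 1.53 CPM (log2 fold change -0.49, edgeR adjusted p = 0.387).

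Of the 6 tRNAs that lie beside tRNA genes only, mt-Ts2 had the largest positive fold change and mt-Tp the largest negative one, at -0.50 (SE 0.35, edgeR adjusted p = 0.444). mt-Tl1, the 1 tested tRNA beside an rRNA gene, was at 15.005 ± 1.78 CPM in floxed and 14.995 ± 3.52 CPM in KO (SD, n = 4), with a log2 fold change of -0.0006 (SE 0.20), although the rRNA next to it had one of 0.64. The light-strand tRNAs had a median of -0.07 over 8 genes and the heavy-strand tRNAs one of 0.37 over the 12 tested.

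Several mitochondrial genes also occur as annotated nuclear copies, and reads from the 2 cannot always be told apart. In all, 15 nuclear genes share at least 1 stretch of 50 bases with the mitochondrial chromosome as rebuilt from its genes, and 10 of the 37 mitochondrial genes hold such a stretch. The stretches shared by Gm43841, which had 0 counts, lie within no single mitochondrial gene. The 5 copies with the most counts, Gm10925, Gm28661, Gm28437, Gm29216 and Gm28439, belong to a block of 7 unprocessed pseudogenes within chr1:24611535-24616197 (GRCm38, minus strand), in the same order as the genes for mt-Co1 to mt-Nd4. Gm10925 matches mt-Atp6 over 678 bases, Gm28661 matches mt-Co2 over 681 and Gm28437 matches mt-Co3 over 783, each with 0 mismatches. Their counts were those of the mitochondrial gene within a few percent: 298439 against 298948 over all libraries for Gm10925 and mt-Atp6, 250513 against 250074 for Gm28661 and mt-Co2, and 242805 against 242039 for Gm28437 and mt-Co3. Gm29216 was placed without gaps over 492 bases of mt-Co1 with 6 mismatches, and 479 bases of mt-Co1 lie in stretches shared with it. It was at 0.433 to 0.732 of the level of mt-Co1 per length. Gm28439, with 0 mismatches over 876 bases of mt-Nd4, was at 0.484 to 0.705 of the level of mt-Nd4. Here the level of the gene is a mean over all its bases (1545 for mt-Co1 and 1378 for mt-Nd4), not over the copied part. These ratios therefore do not measure how reads of the copied part are split.

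Of the 10 copies tested, edgeR called 0, as did DESeq2 and limma-voom, and 1 had an unadjusted p under 0.05 (21.8% of all genes tested). This was Gm28661, the copy of mt-Co2, with a log2 fold change of 0.66 (edgeR adjusted p = 0.134) where mt-Co2 had 0.65. Adding the counts of the copies to the genes left the number of called mitochondrial genes at 0. For mt-Nd3, the copy Gm28438 differs by 1 base, T3C (the base of mt-Nd3, the position from the first base of mt-Nd3, the base of the copy). The level of this copy per level of mt-Nd3 was 1.03 to 1.08 in floxed and 0.797 to 0.927 in KO, without overlap, a ratio singled out after its values had been seen. mt-Tr, mt-Tg, mt-Ts1, mt-Td, mt-Tk and mt-Atp8 lie between the copied genes, and the spaces between the copies on chromosome 1 are within 4 bases of those on chromosome M, but the annotation holds no transcript there and the nuclear genome sequence was not used here. mt-Rnr1, mt-Cytb, mt-Ts2, mt-Tl2 and mt-Th share no stretch with an annotated nuclear transcript.

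**Figure D5:**
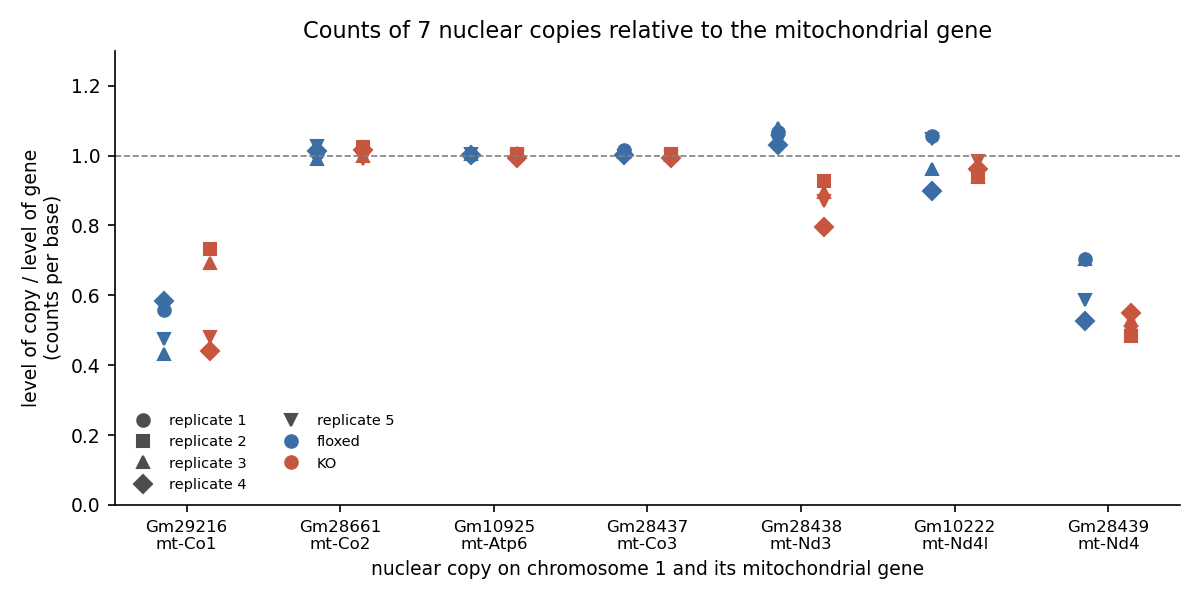
Level of 7 nuclear copies on chromosome 1 divided by the level of their mitochondrial gene (counts per base), in each library, with a dashed line at equal levels. The copies of mt-Co2, mt-Atp6 and mt-Co3 lie at 0.989 to 1.03 in all libraries, and that of mt-Nd3 is lower in KO (0.797 to 0.927) than in floxed (1.03 to 1.08).

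Replicate numbers went with the level of several members inside KO. In 8 of the tested genes, mt-Ta, mt-Tn, mt-Tc, mt-Ty, mt-Te, mt-Th, mt-Tl2 and mt-Nd3, the mean of KO replicates 2 and 3 was more than 2 times that of KO replicates 4 and 5, and in floxed 2 genes had such a ratio between replicates 1 and 3 and replicates 4 and 5. The share of all genes with such a ratio was not worked out. Deviations from the genotype means followed this grouping of numbers across all genes tested, so the ratio cannot be read as a trait of these members. mt-Tn was at 9.46, 10.6, 2.63 and 2.54 CPM in KO and at 6.78, 9.17, 6.80 and 4.10 CPM in floxed. mt-Tc, its neighbour, was at 8.23, 8.998, 2.20 and 2.17 CPM in KO and at 5.80, 6.73, 6.51 and 3.83 CPM in floxed. mt-Ta, mt-Tn, mt-Tc and mt-Ty are the light-strand tRNAs between mt-Nd2 and mt-Co1. mt-Nd3 was at 110.2, 122, 32.6 and 37.2 CPM in KO and at 76.1, 74.5, 63.4 and 31.9 CPM in floxed.

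The nuclear genes of mitochondrial RNA metabolism were looked at beside the mitochondrial genes, in 4 roles. Of the 83 genes, all were tested and 0 passed the thresholds by edgeR, DESeq2 or limma-voom. By edgeR, 0 had an adjusted p under 0.05 (2.97% of all genes tested) and 8 an unadjusted p under 0.05 (21.8% of all), 5 with a positive and 3 with a negative fold change, and the median log2 fold change was 0.03. It was 0.05 over 17 genes of transcription and the nucleoid, -0.04 over 23 of RNA cleavage, processing and decay, 0.26 over 22 of rRNA and tRNA modification and 0.10 over 21 of tRNA charging. Polrmt, the mitochondrial RNA polymerase, was at 0.03 (edgeR adjusted p = 0.969) and Tfam, which packages the DNA and binds the promoters, at 0.40 (edgeR adjusted p = 0.261). Trmt10c, a subunit of RNase P, was at -0.29, Elac2 at -0.06 and Lrpprc, which stabilises the mRNAs, at 0.25 (edgeR adjusted p = 0.433, 0.875 and 0.724). The range ran from -0.62 for Mtpap, the mitochondrial poly(A) polymerase, to 1.08 for Mrm1, an rRNA methyltransferase (edgeR adjusted p = 0.109 and 0.0562). These 2 were named for their place at the ends of the range.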

How the data were processed

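Reads were trimmed (Trim Galore) and mapped to transcripts of GRCm38/mm10 (Bowtie 2) by the authors, who deposited whole-number counts per transcript, not normalized. The counting tool, annotation release and versions are not given in the sources used here. For 7 of the 8 files, an automatic unit check could not read the separator, so another unit is recorded there, although the deposited values are counts.

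Of 138930 transcripts, 138789 matched GENCODE M21. Where a gene has several transcripts, the one with most counts stood for it, and each mt- gene has 1. Transcript totals were 56661356 to 120858975. After filterByExpr and TMM scaling, genotypes were compared by the quasi-likelihood test of edgeR 4.0.16 in R 4.3.3, and p-values were adjusted (Benjamini-Hochberg) over all 21902 genes. The thresholds are those of the methods of the study. CPM uses TMM-scaled library sizes. DESeq2 1.42.0 and limma-voom (limma 3.58.1) were alternatives, and all 3 fits were tested on simulated data. The simulation gave every gene the same dispersion and had no grouping of replicate numbers, so it does not cover the grouping in these libraries. Python 3.11.15 with pandas 2.3.3 made the other values.

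Members, lists, named genes and tests were chosen with earlier results of these data known. Named by rule were all mRNA and rRNA genes, the tRNA genes with the largest and smallest change by position, 5 machinery genes and the 5 copies with most counts. Others, such as mt-Tl2, mt-Th, mt-Tk, mt-Tn and mt-Tc, were chosen after their values were seen. No set test was made. No pair of libraries within a genotype was a duplicate, since the chi-square per degree of freedom was at least 11.6.

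The labels give numbers 3, 4 and 5 in both genotypes, for different mice. Deviations from the genotype means correlated across genes at 0.374, 0.394 and 0.579 for these 3 pairs. Libraries of different numbers correlated as much where both were among 1 to 3 or both among 4 and 5 (0.346 to 0.603), and negatively otherwise (-0.589 to -0.340), so the correlation followed this grouping rather than the single number. The replicate block was fitted as an alternative to replicates 3, 4 and 5 only, so floxed replicate 1 and KO replicate 2 were left out of it.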

Additional observations from a re-analysis of the deposited data

Results flagged for a closer look

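In groups of 4 libraries, a library was flagged where its gap to the nearest other exceeded Dixon's 95% critical value as a share of the group's range. Of 136 groups looked at, 4 had such a library, where chance gives about 1 in 20, or 6.8. Floxed replicate 4 was set apart for mt-Tw, at 5.10 CPM with the other floxed libraries at 2.40 to 2.64 CPM, and for mt-Td, at 8.04 CPM with the others at 1.02 to 2.21 CPM. Floxed replicate 5 was set apart for Polrmt, at 15.6 CPM with the others at 8.86 to 9.80 CPM, and for the ratio of mt-Rnr1 to mt-Nd1 per length, at 0.320 with the others at 0.357 to 0.364. No cause was tested for any of these values.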

How the results depend on the processing

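The number of called mitochondrial genes was 0 in the main fit, 3 with DESeq2, 1 with limma-voom, 3 with a term for replicate numbers 4 and 5, and 0 to 2 with 1 library left out. It was 0 with the replicate block, which changed no call of a mitochondrial gene, and under every other alternative run. Over all genes, 261 were called (99 higher, 162 lower), against 503 with DESeq2, 44 with the replicate block (replicates 3, 4 and 5 only), 521 with the term, 651 by adjusted p alone and 51 to 857 with 1 library left out. The split was 60 higher and 253 lower with unscaled library totals, which moved the median of all genes to -0.20, and 113 and 73 with limma-voom. The differences between KO and floxed in the shares of mitochondrial counts, in percentage points within replicates 1 to 3 and within 4 and 5, were -4.73 and -1.39 for mRNA, 4.0 and 1.63 for rRNA, 0.731 and -0.244 for tRNA and 0.690 and -0.735 for light-strand genes. With 1 library left out they were 2.19 to 3.52 for rRNA and -0.299 to 0.411 for light-strand genes.

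Of 720 alternatives over single genes, 666 kept direction and side of the threshold, 17 newly passed an adjusted p of 0.05, 4 (all Ociad1) no longer did, and 33 turned sign, none of them in a gene with an adjusted p under 0.05. The log2 fold change of mt-Tl1 was 0.011 with median-of-ratios size factors, 0.043 without a filter, 0.012 with DESeq2 and 0.054 with summed transcripts. It was 0.0091 for mt-Co3 with summed transcripts, -0.040 and -0.062 for mt-Nd4 and mt-Nd6 with unscaled totals, and -0.089, -0.011 and -0.097 for mt-Tw, mt-Nd4 and mt-Nd6 scaled to the mitochondrial total. With 1 library left out the ranges were -0.11 to 0.12 for mt-Tl1, -0.32 to 0.15 for mt-Ta, -0.45 to 0.20 for mt-Tn, -0.44 to 0.20 for mt-Tc, -1.22 to 0.11 for mt-Td, -1.20 to 0.071 for mt-Tk, -0.13 to 0.074 for mt-Co3, -0.031 to 0.57 for mt-Nd3, -0.056 to 0.26 for mt-Nd6 and -0.51 to 0.086 for mt-Nd4l. The cause was not tested. Low counts limit the tRNAs outside mt-Ts1 and mt-Te, and 4 libraries a genotype limit all comparisons.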

Other observations

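Apart from the block on chromosome 1, 3 copies on chromosome 2 carried counts, and these followed the replicate numbers in both genotypes. Gm13340, which aligns with mt-Co1 over 1545 bases at 97.6% identity, had a mean of 36.5 CPM in floxed replicates 1 and 3 and 40.9 CPM in KO replicates 2 and 3, against 3.24 CPM and 4.62 CPM in replicates 4 and 5. Gm13341 fell from 27.8 to 6.35 CPM between the same floxed libraries and from 32.6 to 8.33 CPM between the KO libraries. For Gm13339, which aligns with mt-Nd2, the means were 4.07 and 0.272 CPM in floxed and 4.64 and 0.416 CPM in KO. mt-Co1 itself was 1.38 times higher in floxed replicates 1 and 3 than in 4 and 5, and 1.17 times higher in KO replicates 2 and 3 than in 4 and 5. The replicate numbers are not named as batches in the labels, and these values were singled out after they had been seen.

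The spread between libraries of a genotype overlapped between the classes, and a difference was not tested. The highest library was a median of 2.07 times the lowest for mRNA genes (1.34 to 2.81), 1.87 times for rRNA genes and 2.35 times for tested tRNA genes (1.304 to 7.87) in floxed, and 1.64, 1.76 and 2.19 times in KO. The widest spreads were those of mt-Td in floxed (7.87 times) and mt-Tn in KO (4.18 times).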
